A study of Mus musculus with 3 samples.

Results

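Diacylglycerol kinase zeta (DGK-zeta, gene Dgkz) was transfected into C2C12, a line of mouse myoblasts able to fuse into muscle fibres in a dish. The RNA of these cells is described against that of C2C12 cells that had been transfected with enhanced green fluorescent protein (EGFP), which controls for transfection as such. The comparison uses 2 of the 3 samples of the series, the culture labelled DGKzeta and the culture labelled EGFP. The remaining sample, untreated cells, is given only as a value beside them. All 3 carry the time label 12 h, and the cells had been plated for 18 h before FuGene was used for transfection. Both transfected cultures thus share the cell line, the reagent and the time, and differ, per the labels, by what was transfected. The members of the comparison are all probe sets with 1 gene symbol, 20380 of 22690, which stand for 12393 genes. There is 1 array per group, so no difference has a replicate check, no p-value and no SD between replicates is given, and ratios are sizes that hold for these 2 RNA extracts. Neither the sequence of the construct nor the share of cells that took it up is given in the sources used here. As RNA came from whole cultures, fewer cells with a transcript and less of it per cell cannot be told apart.

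DGK-zeta phosphorylates diacylglycerol, the membrane lipid that recruits protein kinase C and Ras exchange factors, and so turns it into phosphatidic acid, itself a signalling lipid. The enzyme carries a stretch like the phosphorylation site domain of MARCKS that can bring it into the nucleus. Ending a diacylglycerol signal there is known to slow cells in G1, the phase in which D-type cyclins activate CDK4 and CDK6 and Btg2 acts against their accumulation. The series title places Btg2 and cyclin D1 between the nuclear kinase and the arrest.

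Values are probe set signals on a linear scale, and a ratio is the log2 of the signal in DGK-zeta cells over that in EGFP cells. Signals under 107, the median of all values pooled, were set to that floor, so a ratio with 1 array under it is a bound. By its brightest probe set, 6926 genes reached the floor on at least 1 of both arrays, 6843 with EGFP and 6625 with DGK-zeta. A probe set that does so is called measured. Across the 9880 named probe sets measured on both, which are not independent replicates, the log2 signals had a correlation of 0.958 (Pearson) and 0.948 (Spearman). Their ratios had a median of -0.03 and an SD of 0.46.

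The ratio moved with brightness, and the arrays also differed in their own control probe sets. The ratio was lowest among dim probe sets, with medians of -0.16, -0.17, -0.15 and -0.09 in the 4 dimmest eighths of these probe sets, and -0.01, 0.05, 0.11 and 0.08 in the 4 brightest. All 18 probe sets of the spiked control transcripts bioB, bioC, bioD and cre lay below 0, between -0.48 and -0.07, with a median of -0.21. The 3' over 5' signal of Actb was 1.27 untreated, 1.43 with EGFP and 2.55 with DGK-zeta, while that of Gapdh was 0.841, 0.902 and 0.931. Their part in the differences given next was not tested. Other scalings moved the median ratio of all genes by 0.07 (quantile normalization), by 0.11 (shared-set scaling, which equalizes the medians of the probe sets measured on both arrays) and by 0.36 (all-set scaling, which equalizes those of every named probe set). A ratio a little below 0 can thus lie above it under another scaling, and lists of genes are set against the median of all genes, which was -0.02. Under all-set scaling, every list of at least 4 measured genes had a median above 0 except integrins, at -0.11.

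**Figure D1:**
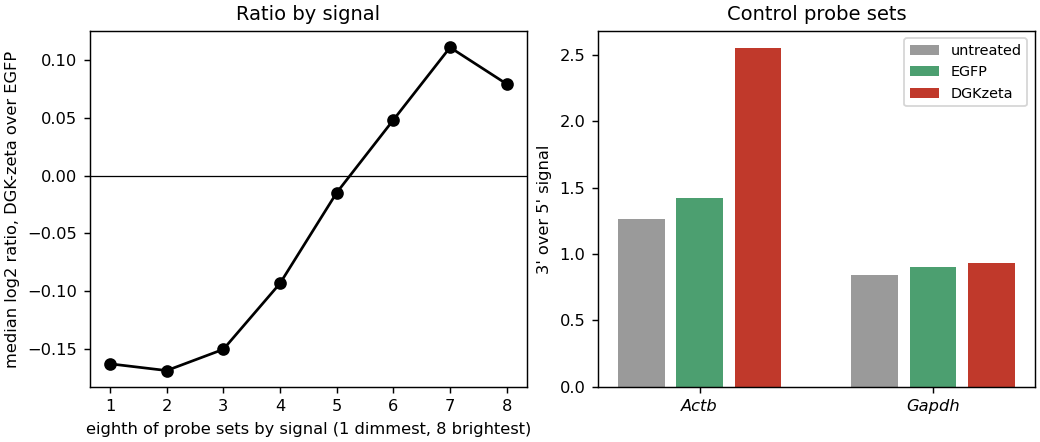
The left panel plots the median log2 ratio of DGK-zeta over EGFP in 8 equal groups of probe sets ordered by signal, and the right panel the 3' over 5' signal of the Actb and Gapdh control probe sets on the 3 arrays. The median ratio lies at -0.16 in the dimmest group and 0.08 in the brightest, and the Actb value reaches 2.55 on the DGK-zeta array.

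Dgkz itself had the highest ratio of any gene measured on both arrays. The brighter of its probe sets read 1500.1 untreated, 1053 with EGFP and 13466 with DGK-zeta, a log2 ratio of 3.68. The other had 188, 240.3 and 4315, a log2 ratio of 4.17. Both probe sets set the DGK-zeta array apart from the other two in the direction of its label. Whether they read the construct, the cells' own transcript or both is not known. Of the other diacylglycerol kinases, Dgka had 178 with EGFP and 176 with DGK-zeta, a log2 ratio of -0.02, and Dgke and Dgkq were under the floor. The labelled cell type was checked on its markers. Of 7 myoblast markers on the array 6 were measured on each of the 3 arrays, with summed signals of 4393 untreated, 4480.3 with EGFP and 4686 with DGK-zeta. Myod1, the defining myogenic factor, was under the floor on all 3. Of 5 markers of differentiated muscle 1 was measured with EGFP and 0 with DGK-zeta, and of 4 epithelial and 4 endothelial markers 0 were measured on either array. The same held for 4 macrophage markers. Of 5 fibroblast markers 2 were measured on each array. Their summed signals, 8911 untreated, 7506 with EGFP and 7250 with DGK-zeta, were above those of the myoblast markers. Of 3 adipocyte markers 1 was measured on each array, and of 4 neuron markers 1.

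As deposited, far more genes lay 2-fold lower than 2-fold higher in DGK-zeta cells, an order that turned under all-set scaling. By the brightest probe set 24 genes (0.347% of those measured) were 2-fold higher or more, and 197 (2.84%) were lower by as much. The split moved with the scaling: quantile normalization gave 52 higher and 106 lower, shared-set scaling 46 and 145, and all-set scaling 166 and 57, with more higher than lower genes. Of the 24 higher genes 20 were measured on both arrays, and of the 197 lower ones 170, so that 27 lower genes are bounds. Without regard to size 3284 genes (47.4%) were higher and 3642 (52.6%) lower.

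Most of these genes rest on 1 probe set, so the weight here is put on genes that several probe sets read. Different probe sets of a gene see 1 RNA extract through different probes, and their agreement bears on the probes, not on the spread between cultures. Among 2646 genes with at least 2 measured probe sets, 570 (21.5%) had every probe set higher, 772 (29.2%) every probe set lower and 1304 (49.3%) probe sets on both sides of 0. All probe sets lay on 1 side in 59.9% of 1755 genes with 2 of them, 37.6% of 615 genes with 3 and 21.4% of 276 genes with 4 or more. Between the 2 brightest probe sets of 2295 genes the ratio had the same sign in 57.9%. The correlation of these ratios across genes, which are not independent, was 0.274 (Pearson) and 0.257 (Spearman). The difference between them gives an SD of 0.40 on the log2 scale for a single probe set, which is close to the 0.46 seen over all probe sets. Few genes passed 1.5-fold with every probe set: 6 genes (0.227%) were at least 1.5-fold higher by all measured probe sets and 74 (2.8%) at least 1.5-fold lower. At 2-fold these were 1 gene (0.0378%), Dgkz, and 8 genes (0.302%). Under each of the 4 scalings 4 genes (0.151%) stayed at least 1.5-fold higher by every probe set, and 15 (0.567%) stayed 1.5-fold lower.

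**Figure D2:**
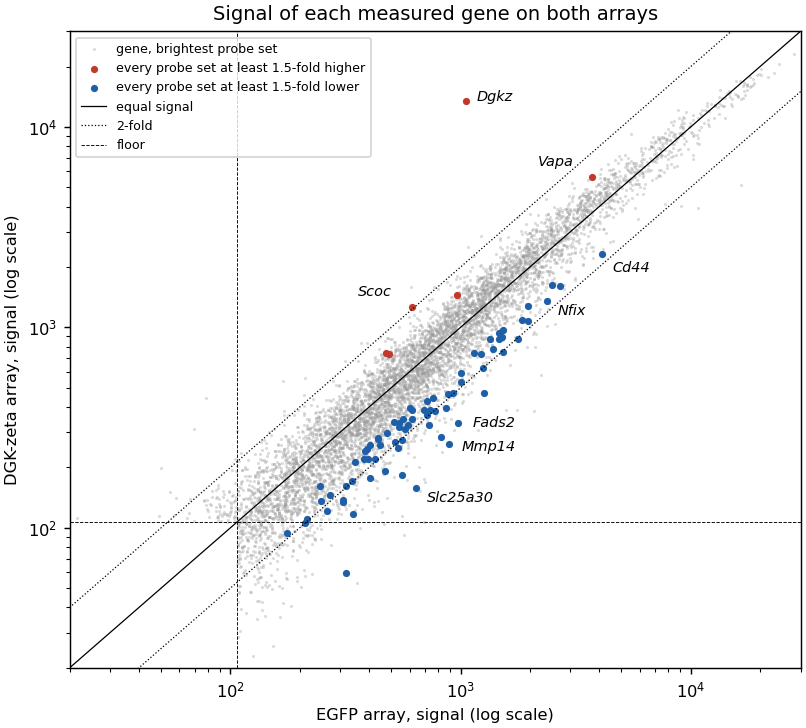
Each dot is a measured gene, placed by the signal of its brightest probe set in EGFP cells (x axis, log scale) and DGK-zeta cells (y axis, log scale), with lines for equal signal, 2-fold and the floor of 107. The 6 genes with every probe set at least 1.5-fold higher are red and the 74 with every probe set at least 1.5-fold lower are blue, and Dgkz lies farthest above the 2-fold line, at 1053 and 13466.

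The transcripts that were higher by all their probe sets included proteins of membranes, RNA binding, chaperones and chromatin. Scoc, a coiled-coil protein of the Golgi, had signals of 615 with EGFP and 1266 with DGK-zeta by its brightest probe set and 469.7 and 884 by the other, log2 ratios of 1.04 and 0.91. Zfp644, a zinc finger protein, had 472 and 741, then 329.9 and 566, log2 ratios of 0.65 and 0.78. Vapa, which tethers the endoplasmic reticulum to other membranes, had 3728 and 5611, then 2803 and 4364, log2 ratios of 0.59 and 0.64. These 3 genes differed by a like amount through both probe sets. Arhgap5, a GTPase-activating protein, was less even: 963 and 1453 by its brightest probe set, a log2 ratio of 0.59, and 250.3 and 539 by the other, a log2 ratio of 1.11. Acsl4, an acyl-CoA synthetase that prefers arachidonate, completes the 6 genes with 489 and 740.0, a log2 ratio of 0.60, and another probe set just under the floor in EGFP cells and at 169 in DGK-zeta cells, at least 1.58-fold higher. Dgkz, Scoc, Zfp644 and Acsl4 are the 4 genes that stayed past 1.5-fold under each scaling.

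The ranking, by the mildest probe set of each gene, also held a heat shock gene and parts of several protein machines. Hspa1b, the stress-inducible HSP70, had 3 probe sets, with signals of 1945 and 2916, 1359 and 3374, and 1196 and 2095, log2 ratios of 0.58, 1.31 and 0.81. Its near-identical copy Hspa1a, with which probes can be shared, was under the floor in EGFP cells and at 199.6 in DGK-zeta cells, at least 1.86-fold higher. Zfp110, another zinc finger protein, also agreed over 3 probe sets, at 0.55, 0.61 and 0.70. The next genes had 2 probe sets each. H1f2, a linker histone, was at 0.55 and 0.56, and Pfdn5, a subunit of the prefoldin chaperone, at 0.54 and 0.58. By its brightest probe set H1f2 had 780 untreated, 518 with EGFP and 757 with DGK-zeta, and by the other 424, 420 and 617. Rbm18, an RNA-binding protein, was at 1.11 and 0.55, and Dctn6, a subunit of dynactin, at 1.06 and 0.53. Stt3a, a catalytic subunit of the oligosaccharyltransferase, was at 0.73 and 0.53, and Tasp1, the protease that cleaves MLL, at 0.69 and 0.53. Dram2, a membrane protein of autophagy, was at 0.53 and 0.71, and Morc3, a nuclear ATPase, at 0.64 and 0.52. Rnpc3, at 0.50 and 0.62, lay just outside these 15 genes.

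**Figure D3:**
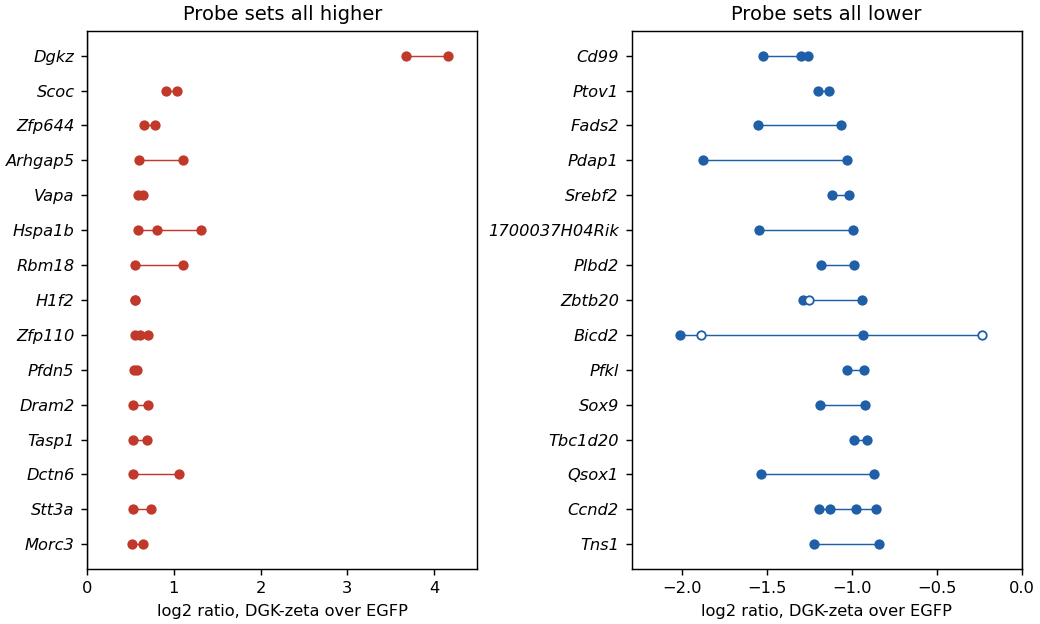
The log2 ratio of DGK-zeta over EGFP is drawn for every measured probe set of the 15 genes with the highest and the 15 with the lowest agreement, filled where both arrays reached the floor and open where the value is a bound. Dgkz lies at 3.68 and 4.17 while every other higher gene stays at or under 1.31, and the lower genes lie between -2.02 and -0.23.

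The lower transcripts with agreeing probe sets included cell surface, lipid, growth factor and adhesion genes. Cd99, a surface glycoprotein, led the ranking with 3 probe sets. Its signals were 820.0 with EGFP and 285 with DGK-zeta, then 479 and 195, and 341 and 142, log2 ratios of -1.53, -1.30 and -1.26. In untreated cells the same probe sets had 369, 297 and 163, each between the values of both transfected cultures. Ptov1 had 865 and 394, then 354 and 154, log2 ratios of -1.13 and -1.20. Pdap1, a protein that binds the A chain of platelet-derived growth factor, had 1779 and 872, then 801 and 218, log2 ratios of -1.03 and -1.88. Slc25a30, a mitochondrial carrier, had 638 and 158 by its brightest probe set, a log2 ratio of -2.01, and 2 further ones that were at least 4.5-fold and 3.78-fold lower. Dclk1, a microtubule-binding kinase, had 467 and 193, a log2 ratio of -1.28, and by the other probe set was at least 2.72-fold lower. With Fads2, Srebf2 and Mmp14, given among lipid and matrix genes, these are the 8 genes at least 2-fold lower by every probe set.

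Other agreeing genes lay between 1.5-fold and 2-fold lower by their mildest probe set, among them factors of transcription, metabolism and membrane traffic. Sox9, a transcription factor of cartilage and progenitor cells, had 403 and 177, then 239 and 126, log2 ratios of -1.19 and -0.92. Pfkl, the liver form of phosphofructokinase, had 881 and 462, then 575 and 282, log2 ratios of -0.93 and -1.03. In each of these genes both probe sets were close to 2-fold lower. Plbd2, a lysosomal protein, was at -1.18 and -0.99, and Tbc1d20, a GTPase-activating protein for Rab proteins, at -0.91 and -0.99. Qsox1, a sulfhydryl oxidase of the secretory pathway, was at -1.54 and -0.87, and 1700037H04Rik at -0.996 and -1.55. Zbtb20, a transcriptional repressor, was at -0.94 and -1.29, with the third probe set under the floor in DGK-zeta cells. Tns1, a tensin of focal adhesions, was at -0.84 and -1.23. Cops7a, at -1.16 to -0.83, lay just outside the 15 lowest. The 15 genes that stayed 1.5-fold lower by every probe set under each scaling were the 8 genes above with 1700037H04Rik, Plbd2, Ehmt2, Mark2, Rhbdd3, Senp1 and Sim2, the last 5 of which were not ranked, having fewer than 2 probe sets at the floor on both arrays.

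Cell cycle genes did not share 1 direction, and D-type cyclins differed among themselves. Ccnd2, which encodes cyclin D2, was lower by all 4 probe sets. Their signals were 718 with EGFP and 365 with DGK-zeta, 778 and 428, 422 and 193, and 341 and 149, log2 ratios from -1.19 to -0.86. Untreated cells had 807, 621, 311 and 293 by the same probe sets, each above the DGK-zeta value. Ccnd1, which encodes cyclin D1, had log2 ratios of 0.35 and 0.21 by its brightest probe sets and -2.28 by the third, so its direction cannot be stated. Ccnd3 was at -0.64. The other cyclins and kinases of G1 lay within 2-fold: Cdk7 was at 0.51, Ccne2 at 0.33, Ccnh at 0.26, 0.16 and 0.13 by its 3 probe sets, Ccne1 at -0.48 and Cdk4 at -0.13, -0.13 and -0.42. The list of 11 measured members had 6 above and 5 below 0, with 0 at least 2-fold apart and a median of 0.23 (all genes -0.02). That median was below all genes, by -0.16, when each gene was the mean of its probe sets.

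Regulators around these cyclins were likewise split. Foxm1, a transcription factor of genes for mitosis, was lower by all 3 probe sets, with signals of 616 and 348, 576 and 328, and 552 and 270.3, log2 ratios of -0.82, -0.81 and -1.03. Mybl2, which encodes B-Myb of the same gene program, had a log2 ratio of -0.85 by its brighter probe set and was at least 1.58-fold lower by the other, which did not reach the floor with DGK-zeta. A general list of 49 mitosis genes, which holds Foxm1 itself, had 27 above and 22 below 0 with a median of 0.03. Nuf2 was at -0.82, Plk1 at -0.56 and Spc25 at 0.61. The 47 DNA replication genes had 28 above and 19 below 0 with a median of 0.04, and 0 members of either list were at least 2-fold apart. Of the 24 replication genes with at least 2 measured probe sets 7 were higher and 3 lower by all of them (21.5% and 29.2% of all such genes). Mcm3, a subunit of the replicative helicase, had 4 probe sets below 0 as deposited, at -0.28, -0.57, -0.62 and -1.30.

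Inhibitors of proliferation did not lean as 1 group. Btg2, the gene of the series title, had 116 with EGFP and 117 with DGK-zeta, near the floor, a log2 ratio of 0.01. Of its family Tob1, an antiproliferative protein that recruits deadenylases, had 749.9 and 1145, a log2 ratio of 0.61, from 1 probe set. Tob2 was at 0.17 and 0.05, but at least 1.66-fold lower by the third probe set, and Btg1 at 0.00 and 0.24. The 4 measured members all had ratios above 0 by their brightest probe sets, with a median of 0.09. Relative to all genes this median lay between 0.06 and 0.16 under the alternatives that left 4 measured members. Among 12 CDK inhibitors and RB pathway genes 4 were above and 8 below 0, with a median of -0.08. Rb1, the retinoblastoma protein, had 527 and 769.8, a log2 ratio of 0.55, E2f4 was at -0.93, and E2f1 at -0.96 and -0.02. Cdkn1b, which encodes p27, was at -0.29. Cdkn1a, which encodes p21 and was named after its values were seen, was at 0.10 by its brighter probe set and at least 1.34-fold lower by the other, which was under the floor in DGK-zeta cells.

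**Figure D4:**
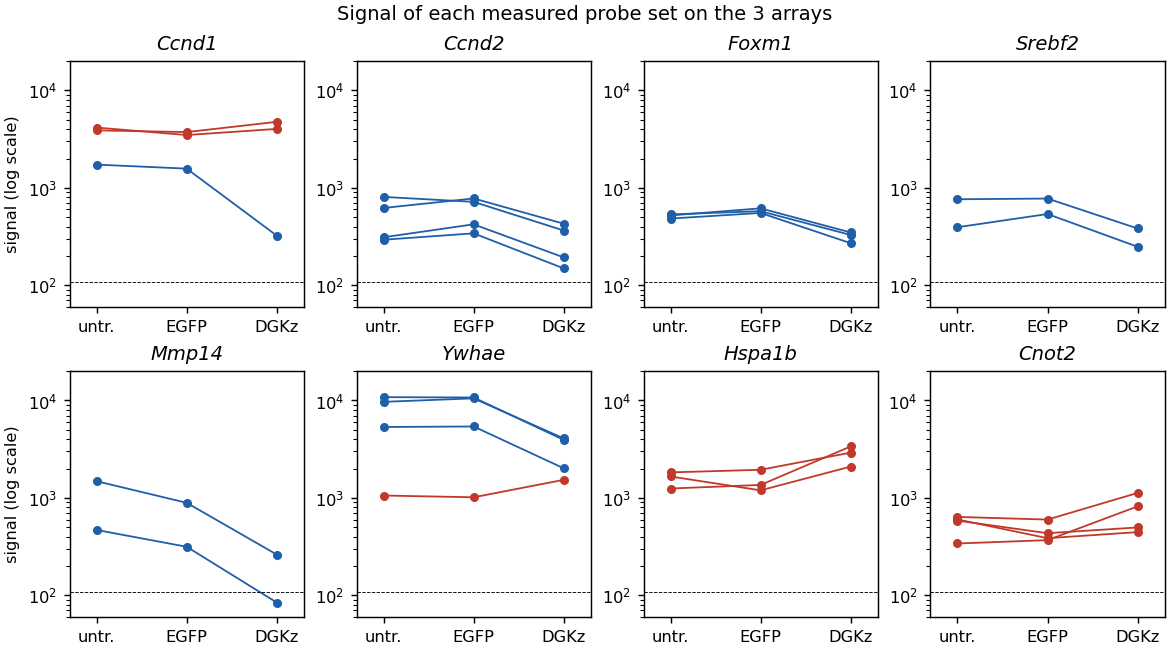
Signals (log scale) of every measured probe set of 8 genes are plotted on the untreated (untr.), EGFP and DGK-zeta (DGKz) arrays, with a line joining the values of 1 probe set, red where DGK-zeta was above EGFP and blue where it was below, and a dashed line at the floor of 107. All 4 Ccnd2, all 3 Foxm1 and all 3 Hspa1b probe sets agree in sign, whereas Ccnd1 and Ywhae each have probe sets on both sides.

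A list of enzymes of diacylglycerol, phosphatidic acid and related phospholipids leaned lower than genes at large, and a list of effectors was evenly split. Of 20 measured enzymes 6 were above and 14 below 0, with a median of -0.32, and 2 (10%, beside 2.84% of all genes) were at least 2-fold lower. The 2 were Lpcat1 and Pip5k1a, and the probe sets of Pip5k1a ran from -1.71 to 1.29. Of 7 enzymes with several probe sets 3 were lower by all, 0 higher and 4 mixed (29.2%, 21.5% and 49.3% of all such genes). Dgkz is not counted among the 20 enzymes. Set against all genes the median lay between -0.35 and -0.10 under every alternative, although by itself it was 0.04 under all-set scaling. Lpcat1, an acyltransferase of phospholipids, had 3 probe sets below 0 as deposited, at -1.16, -2.02 and -0.15. Lpcat3 was at -0.74, the phospholipase D family member Pld3 at -0.64, Dgat1, which turns diacylglycerol into triglyceride, at -0.59, and Lpin2, a phosphatidic acid phosphatase, at -0.53. Plcd1, a phospholipase C that releases diacylglycerol, was at -0.86 by its brightest probe set. Of the enzymes nearest to the DGK reaction, Plpp1, a phosphatidic acid phosphatase, was at -0.02 and 0.12 and Cds2, which uses phosphatidic acid, had probe sets from -0.79 to 0.57. These enzymes thus did not share the lean. The acyltransferase genes Gpam, at 0.44, and Agpat5, at 0.31, were above 0, and Agpat3, at -0.40, was below it. Of 13 effectors 6 were above and 7 below 0 with a median of -0.00. The 6 of them with several probe sets all had these on both sides of 0. Prkcd, protein kinase C delta, was at -0.43, Prkce at 0.25 and Prkca at -0.00 and 0.02. Mtor, a kinase that binds phosphatidic acid, was at 0.30.

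Adhesion and matrix genes leaned lower than genes at large. Of 42 measured extracellular matrix genes 9 were above and 33 below 0, with a median of -0.32, and 4 were at least 2-fold lower, 9.52% of the list beside 2.84% of all genes. The 4 were Col8a1, Lama5, Sparc and Plod2, and the probe sets of Sparc and of Plod2 did not agree in sign. The list lay below all genes by -0.30 to -0.23 under every alternative, and its own median was 0.04 under all-set scaling. Of its 22 members with several probe sets 13 were lower and 2 higher by all of them, beside 29.2% and 21.5% of all such genes. Thbs1, thrombospondin 1, was at -0.50 and -0.74, and Lama5, a laminin chain, at -1.03 and -0.29. Col8a1, a short-chain collagen, was at -1.99 from 1 probe set. Among 17 matrix proteases and inhibitors, 7 above and 10 below 0, the membrane-bound collagenase Mmp14 was lowest, with signals of 1484 untreated, 891 with EGFP and 262 with DGK-zeta, a log2 ratio of -1.76. Its other probe set had 469 and 315 and was under the floor in DGK-zeta cells, at least 2.94-fold below EGFP. Mmp2, the gelatinase that MMP14 is known to activate, was at -0.76 and -0.55, and Bmp1, which trims procollagen, at -0.35 and -1.26. Of 5 fibroblast markers 2 were measured, with summed signals of 7506 with EGFP and 7250 with DGK-zeta, and their part in these values was not tested.

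Integrins and actin regulators lay on the same side relative to all genes. Of 8 measured integrins 2 were above and 6 below 0, with a median of -0.47, and 4 of the 6 with several probe sets were lower by all of them (29.2% of all such genes). Relative to all genes the median stayed between -0.48 and -0.24. Itga5, the fibronectin receptor chain, was at -2.06 and, by a probe set under the floor in DGK-zeta cells, at least 1.38-fold lower, and Itga3 was at -0.95 and, by probe sets under that floor there, at least 3.22-fold and 1.06-fold lower. Itgb1, the shared beta chain, was at -0.20 and -0.12, and Itgb5 between -0.67 and -0.00. The 2 integrins above 0 by their brightest probe set had others below it, and were named after their values were seen. Itgav, a chain of vitronectin receptors, had 2338 and 4345, a log2 ratio of 0.89, and -0.39 by the other. Itga6, a chain of laminin receptors, was at 0.21 and -1.77. Cd44, the hyaluronan receptor, had 4107 and 2333, then 1198 and 664, log2 ratios of -0.82 and -0.85. Of 40 actin and focal adhesion genes 13 were above and 27 below 0, with a median of -0.18, which lay between -0.25 and -0.12 relative to all genes but above 0 by itself under all-set scaling. Of 23 with several probe sets 7 (30.4%) were lower by all, 3 higher and 13 mixed, beside 29.2%, 21.5% and 49.3% of all such genes. Actb was 2-fold lower or more by its brightest probe set, at -1.69, but at 0.76 by the other. Arpc4, a subunit of the ARP2/3 complex that starts actin branches, was at -1.43 and -0.62. Wdr1, which speeds filament disassembly, was at -0.75, -0.70 and -1.09, and Csrp1, a LIM protein of actin bundles, at -0.75 and -0.92. The Actb 3' over 5' value of 2.55 on the same array stands beside these, and its part in them was not tested.

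Few muscle lineage genes were measured. Of 9 myogenic regulators 4 were above and 5 below 0, with a median of -0.32 that was above 0 under all-set scaling. Myf5, the myogenic factor of myoblasts, had 1227 and 2036, a log2 ratio of 0.73. Des, the intermediate filament of muscle, had 932 and 479, a log2 ratio of -0.96, Itga7 was at -0.67 and the M-cadherin gene Cdh15 at -0.62. The repressor Snai1 was at -1.12. Markers that define myoblasts thus lay on both sides of 0.

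Lipid synthesis showed a lower regulator and desaturase within a list of mixed direction. Srebf2 encodes SREBP2, the membrane-bound factor that switches on cholesterol synthesis. Its signals were 776 with EGFP and 383 with DGK-zeta, then 538 and 248, log2 ratios of -1.02 and -1.12. Scap, the protein that escorts SREBP2 to the Golgi, was at -0.88. Fads2, the delta-6 fatty acid desaturase, had 979 and 333, then 411 and 196, log2 ratios of -1.55 and -1.06. Of the 29 measured cholesterol and fatty acid genes 12 were above and 17 below 0, with a median of -0.08 that was above 0 under shared-set and all-set scaling. Of 15 with several probe sets 3 were higher, 5 lower and 7 mixed. The sterol enzymes Dhcr7, at -0.80, and Mvd, at -0.57 and -0.35, were lower, and Stard4, a sterol carrier, was at -0.82 and -0.31. Dhcr7 had 548 untreated, 914 with EGFP and 527 with DGK-zeta, so its DGK-zeta value was near the untreated one. Cyp51, at 0.24 and 0.93, and Insig2, at 0.39, 0.36 and 0.69, lay on the other side. Aacs, which makes acetoacetyl-CoA for lipids, was at -0.77 and -0.86.

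Sp1 had 2287 untreated, 1579 with EGFP and 388 with DGK-zeta by its single measured probe set, a log2 ratio of -2.03. Its protein binds GC boxes, and the start sites of a lower and a higher gene are shown with these boxes marked. Each sequence is the 250 bases before the start site on the strand of the gene, from RefSeq with build GRCm38.p6, with capitals marking the GC box GGGCGG on either strand. The Srebf2 stretch, chr15:82147019-82147268 on the plus strand, is 67.6% G and C and holds 4 GC boxes. The Hspa1b stretch, chr17:34959239-34959488 on the minus strand, is 63.6% G and C and holds 3.
Srebf2: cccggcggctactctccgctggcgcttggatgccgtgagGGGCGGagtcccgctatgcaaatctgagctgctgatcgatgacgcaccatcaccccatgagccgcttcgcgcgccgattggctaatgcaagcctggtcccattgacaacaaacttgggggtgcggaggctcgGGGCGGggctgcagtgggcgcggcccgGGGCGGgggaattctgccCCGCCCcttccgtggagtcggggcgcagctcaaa
Hspa1b: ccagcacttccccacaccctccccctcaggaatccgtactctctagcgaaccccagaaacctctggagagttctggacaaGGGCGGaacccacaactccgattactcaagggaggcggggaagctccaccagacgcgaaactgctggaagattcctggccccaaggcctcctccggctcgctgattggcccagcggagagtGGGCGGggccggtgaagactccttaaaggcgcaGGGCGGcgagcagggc
Over windows of 250 bases before to 50 after the start, the GC box stood in 63.2% of 87 promoters of the genes with every probe set at least 1.5-fold lower (61 of 74 genes matched). It stood in 55.6% of 9 promoters of the corresponding 6 higher genes, in 67.0% of 2866 promoters of genes with at least 2 measured probe sets, and in 35.7% of all 32851 promoters. The share among lower genes was no higher than among the genes they were drawn from, and a part of Sp1 in any of these genes was not tested. The sterol element TCACCCCA, searched on both strands, stood in 4.6% of the lower promoters and in 1.5% of those of genes with at least 2 measured probe sets. CCAAT stood in 25.3% and 36.4%. The sterol element share of the lower genes rests on 4 promoters, and the Srebf2 stretch above holds this element, unmarked. A match is a description of letters, not a binding site.

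Growth factor signalling and transcription factors held several of the other agreeing lower genes, and those outside the naming rule were named after their values were seen. Akt1, the kinase downstream of PI3K, had 2483 and 1628, a log2 ratio of -0.61, and by its other probe set 907 and 214, a log2 ratio of -2.08. Fgfr1, a receptor for fibroblast growth factors, was at -0.65 and -1.32, the tyrosine kinase gene Src at -0.80 and -0.63, and the Wnt receptor Fzd2 at -1.16, -1.26 and -0.70. The 33 measured MAPK and PI3K genes had 12 above and 21 below 0 and a median of -0.08 that was above 0 under each other scaling, and of 18 with several probe sets 1 was higher and 10 lower by all (21.5% and 29.2% of all such genes). Among transcription factors, Nfix, a nuclear factor I protein that acts in fetal muscle, had 2370.2 and 1358, 2124 and 795, and 1452 and 425, log2 ratios of -0.80, -1.42 and -1.77. Nfic of the same family was at -1.95 from 1 probe set. Cebpb had a log2 ratio of -0.74 by its brighter probe set, and the small Maf gene Mafg of -0.74.

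In the chromatin and the TGF-beta list the 2-fold lower members made up a larger share than the 2.84% of all genes. Of 45 chromatin and general transcription genes 21 were above and 24 below 0, with a median of -0.04, and 5 (11.1%) were at least 2-fold lower beside 2.84% of all genes. Of 21 with several probe sets 10 were lower and 1 higher by all of them (29.2% and 21.5% of all such genes). The 5 were Sp1, at -2.03, Brd2, a bromodomain protein, at -2.18 and -0.57, Smarcc1, a BAF complex subunit, at -1.35, Ccnt1, a cyclin of transcription elongation, at -1.50, and Kmt2a, a methyltransferase, at -1.31 and -0.27. Ehmt2, the G9a methyltransferase of histone H3, is not in the list and was named after its values were seen. It had 1524 and 749, a log2 ratio of -1.02, and was at least 1.85-fold lower by another probe set. Of 29 TGF-beta and BMP genes 15 were above and 14 below 0, with a median of 0.12 that lay 0.14 above all genes but below them by -0.13 at the lower floor and by -0.0436 as the mean over probe sets. Of them 5 (17.2%) were at least 2-fold lower: Inhba, an activin subunit, at -1.54, the ligand Tgfb1 at -1.31, the inhibitor Fstl3 at -1.26, Tgfb1i1 at -1.19 and the latent TGF-beta binding protein gene Ltbp4 at -1.03.

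Stress and redox lists leaned in different directions. NRF2 targets, genes of the oxidant defence, had 6 above and 14 below 0 of 20, a median of -0.15 that lay between -0.29 and -0.10 relative to all genes, and 7 of 12 with several probe sets were lower by all and 0 higher (29.2% and 21.5% of all such genes). Gsr, glutathione reductase, was at -0.58 and -0.81, and Keap1, the inhibitor of NRF2, at -0.60. Of 23 heat shock and chaperone genes 15 were above and 8 below 0, with a median of 0.12, between 0.04 and 0.18 above all genes under every alternative, and 5 of the 17 with several probe sets were higher and 3 lower by all, shares near the 21.5% and 29.2% of all such genes. The 34 genes of the unfolded protein and integrated stress responses had 18 above and 16 below 0 and a median of 0.09, which was -0.0209 below all genes after quantile normalization. Within that list Trib3, a pseudokinase of this response, was under the floor in EGFP cells and at 305 in DGK-zeta cells by its brighter probe set, at least 2.85-fold higher, and at 0.04 by the other. Atf4 was at 0.12 and 0.53, Atf5 at -1.13, and Sel1l, which removes misfolded proteins, at -0.55, -0.72 and -1.09. Of 26 immediate early genes 10 were above and 16 below 0, with a median of -0.08. Of the 8 with several probe sets 0 were higher and 3 lower by all (21.5% and 29.2% of all such genes). Egr1 of this list had 1099.8 and 1900.5, a log2 ratio of 0.79, whereas Ier2 was at -0.80. The 20 interferon-stimulated genes were at 10 above and 10 below 0, with a median of -0.04.

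Mitochondrial and proteasome subunits leaned higher by small amounts as deposited, but not after quantile normalization. Of 67 respiratory chain genes 44 (65.7%, beside 47.4% of all genes) were above 0, with a median of 0.09, and of 38 with several probe sets 18 were higher and 5 lower by all (21.5% and 29.2% of all such genes). Ndufv2, a complex I subunit, was at 0.24, 0.46 and 0.59, Cox6c at 0.31 and 0.55 and Uqcr10 at 0.37, 0.39 and 0.32. Of 31 proteasome genes 18 were above and 13 below 0, with a median of 0.08, and of 12 with several probe sets 6 were higher and 1 lower by all (21.5% and 29.2% of all such genes). Psmd6 was at 0.18 and 0.86, and Psmc6 at 0.39, 0.62 and 0.13, but Psmd3 at -1.17. After quantile normalization both lists lay below all genes, by -0.0474 and -0.0465. The climb of the ratio with brightness stands beside these lists, and its part in them was not tested.

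**Figure D5:**
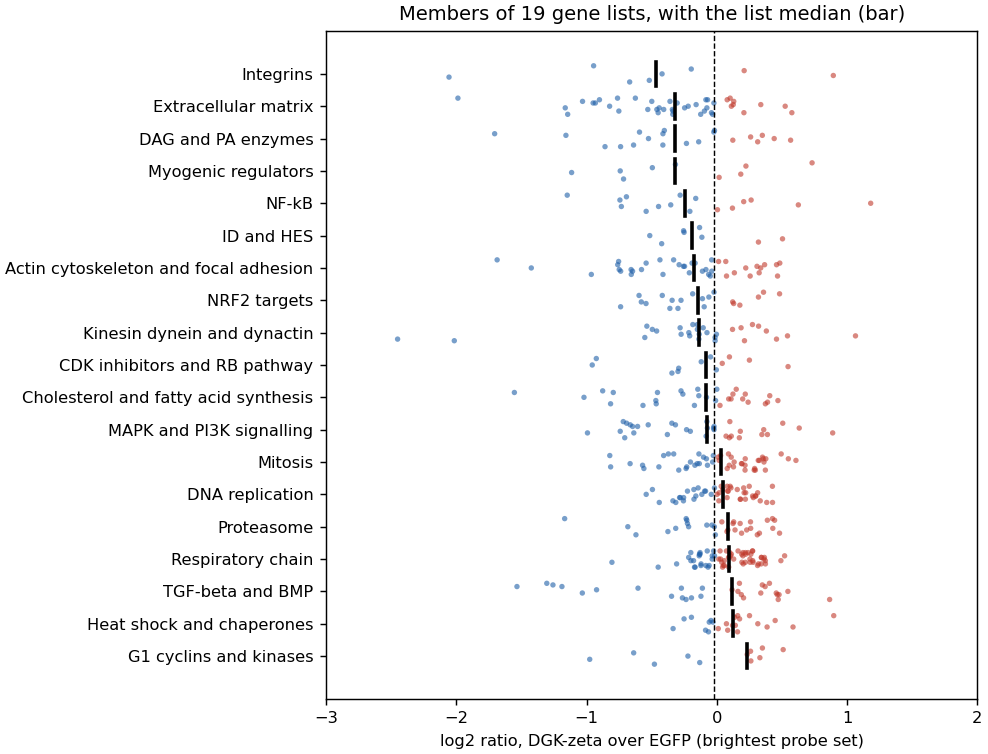
Each dot is a measured gene of a list, placed at its log2 ratio of DGK-zeta over EGFP (red above 0, blue below), with a bar at the list median and a dashed line at the median of all genes, -0.02. Integrins (-0.47) and extracellular matrix (-0.32) lie lowest and G1 cyclins and kinases (0.23) highest as deposited, but the last list is below all genes as the mean over probe sets, TGF-beta genes are so too and at the lower floor, ID and HES genes are above them at the higher floor, respiratory chain and proteasome genes are below them after quantile normalization, and every bar but that of integrins is above 0 under all-set scaling.

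A gene of mRNA deadenylation was higher by each of 4 probe sets, though by less than 1.5-fold by a pair of them. Cnot2, a scaffold of the CCR4-NOT deadenylase that Tob and Btg proteins bind, had 4 probe sets, with signals of 599 and 1125, 434 and 497, 386 and 446, and 369 and 819. The log2 ratios were 0.91, 0.20, 0.21 and 1.15. The 0.91 and 1.15 came from _x_at probe sets, and without _x_at and _s_at sets the ratio was 0.21. Untreated cells had 638, 585, 601 and 340.5, and by the second and the third probe set these were above DGK-zeta cells. Cnot3 of the same complex was at -1.72 from 1 probe set. Of 22 genes of mRNA decay and silencing 11 were above and 11 below 0, and 3 (13.6%, beside 2.84% of all genes) were at least 2-fold lower. The 3 were Cnot3, Ago2, at -1.18 from 1 probe set, and Cnot6l, at -2.13 by its brightest probe set but 0.01 by another.

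Genes with a single measured probe set have no such agreement to lean on. Of 3929 measured on both arrays 10 were at least 2-fold higher and 108 lower, beside 24 (0.347%) and 197 (2.84%) of all 6926 genes. The lowest after Rasal2, a GTPase-activating protein for Ras (556 and 115, a log2 ratio of -2.27), and Sp1 were Col8a1, Nfic and Anpep, an aminopeptidase of the cell surface, at -1.94. Behind them came Ncln at -1.80, Thop1, a peptidase, at -1.77, Palm, a membrane-bound protein, at -1.67 and Pias4, a SUMO ligase, at -1.65. Of these lower genes, Anpep had 154 untreated, 457 with EGFP and 119 with DGK-zeta, the untreated value lying nearer to DGK-zeta. The highest were Rpgrip1, at 1.67, and Tspan12, at 1.41. Further down, Trp53inp1, a stress gene induced by p53, had 177 and 364, a log2 ratio of 1.04. The ribosomal protein gene Rps27 was at 1.15, the spliceosome gene Snrpd3 at 1.01 and Cep70, a centrosome protein, at 1.08. Rps27 had 373 untreated, 171 with EGFP and 380 with DGK-zeta, so its DGK-zeta value was near the untreated one.

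Probe sets of a gene could also contradict each other by more than most differences between the arrays. In 2 genes (0.0756%) a probe set at least 2-fold higher stood against another at least 2-fold lower. Pip5k1a, a phosphatidylinositol phosphate kinase, had 419 and 128 by its brightest probe set, a log2 ratio of -1.71, and 132 and 323 by its dimmest, a log2 ratio of 1.29. Vps37c, an ESCRT subunit, was at 1.14 and -1.23. The widest gaps were those of Dpysl3, from -2.53 to 0.65, Kif5b, from -2.45 to 0.72, Myh9, from -2.76 to 0.37, and Cald1, from -2.61 to 0.47. The 14-3-3 gene Ywhae, named after its values were seen, had 3 probe sets at -1.44, -1.37 and -1.42 and the fourth, with 1015 and 1533, at 0.60. For such genes no direction is given.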

How the data were processed

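RNA of 1 culture per group was labelled with biotin in 1 cycle and put on 1 array each, per the labels' protocols. The authors deposited linear probe set intensities, and per the submitters' processing notes these come from MAS5. No version, scaling target or detection call is given in the sources used here. The deposited intensities were used with no further scaling. Probes on such arrays lie mostly near the 3' end of transcripts, and their positions were not used.

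Of 22690 probe sets, 64 are controls, 20380 have 1 symbol in the platform annotation, 691 several and 1555 none. Only those with 1 symbol were used. Gene IDs of 20351 were found in a RefSeq gene table (GRCm38.p6), and 0 symbols differed. A gene was represented by its brightest probe set over the 3 arrays, signals under the 50th percentile of all values (107) were set to it, and a measured probe set reached it on at least 1 of the arrays compared. With 1 array per group no test was run, and the number of arrays limits the precision.

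Named genes were Dgkz, Ccnd1 and Btg2, the 15 highest and 15 lowest with agreeing probe sets (ranked by the smallest ratio measured on both arrays, at least 2 needed), the 10 highest and 10 lowest with 1 measured probe set, up to 6 members of each of 49 lists with the largest ratios among those with agreeing or single measured probe sets, any 2-fold apart, and the 8 with the widest gaps. Not every such gene is printed, and others were named after their values were seen. Members and lists were chosen with earlier results of these data known. Alternatives were 3 scalings, 2 floors (25th and 75th percentile), a pseudocount of 15, the mean over probe sets, no _x_at or _s_at sets, and other folds. Counting was tried on simulated data with far less noise than was seen between probe sets of a gene. Only bright genes were moved in them, so the trial does not bear on how reliable the counts are. The tools were matplotlib 3.10.9, pandas 2.3.3, numpy 2.4.6 and scipy 1.17.1 in Python 3.11.15.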

Additional observations from a re-analysis of the deposited data

How the results depend on the processing

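Leaving out replicates was not possible with 1 array per group, and no measure here covers the spread between cultures. No paired analysis was possible because each group has 1 array. Dim probe sets limit the comparison, since values under the floor have no order and 27 of 197 genes counted as 2-fold lower are bounds.

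The counts moved with the scaling. Quantile normalization gave 52 genes at least 2-fold higher and 106 lower, and 23 genes at least 1.5-fold higher by every probe set. Equal medians over all named probe sets gave 166 and 57 genes at 2-fold, 1396 and 245 genes with all probe sets higher and lower, and 173 and 16 with every probe set 1.5-fold apart. Equal medians over probe sets measured on both arrays gave 46 genes 2-fold higher and 23 with every probe set 1.5-fold higher. A floor at the 25th percentile gave 194 higher and 613 lower genes at 2-fold, 1221 with all probe sets lower, and 17 and 183 with every probe set 1.5-fold apart. The floor at the 75th percentile gave 7, 24, 239, 3 and 9. The mean over probe sets gave 15 genes 2-fold higher. At 1.5-fold the counts were 243 and 806 and at 3-fold 3 and 30. With every probe set at 1.2-fold they were 134 and 303, and at 2-fold 1 and 8.

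Of 170 named genes at least 1.5-fold apart, 168 kept their sign under all 8 alternatives for genes. The exceptions were Pip5k1a at 0.0644 and Vps37c at -0.0462 as the mean over probe sets. Keeping the sign was largely set in advance, so this count says little about robustness. Another floor or a pseudocount cannot turn a sign, and the scalings moved the median of all genes by at most 0.36, less than 1.5-fold. A gene missing under an alternative was counted as keeping its sign. Of 42 lists with at least 4 measured genes 18 lay at least 0.1 from all genes, and 12 of these kept that sign under every alternative that left 4 measured genes. Relative to all genes, the median turned to -0.16 for G1 cyclins and -0.0436 for TGF-beta genes as the mean over probe sets. It turned to -0.0209 for the unfolded protein and integrated stress responses, -0.0465 for the proteasome and -0.0474 for the respiratory chain after quantile normalization. TGF-beta genes were at -0.13 with the floor at the 25th percentile, and ID and HES genes at 0.0492 with the floor at the 75th. The cause was not tested.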

Other observations

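Genes of G protein, Wnt and NF-kB signalling lay on both sides of 0. Of 17 G protein genes 9 were above and 8 below 0. Of 20 Wnt genes 10 were on either side, with Csnk1e, a casein kinase, at -1.25 and -0.33 and Tcf7l2 at 0.66. Of 16 NF-kB genes 6 were above and 10 below 0. Tank, an adaptor of that pathway, had 368 and 833, a log2 ratio of 1.18, whereas Tnfrsf1a, a receptor for TNF, was at -0.73 and Traf2 at -0.69.

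Transport, splicing and survival genes held opposite values within a list. Of 38 endosome, lysosome and ESCRT genes 20 were above and 18 below 0. Vps4b, the ATPase that takes ESCRT apart, had 1482 and 2730.3, a log2 ratio of 0.88, while the ESCRT genes Hgs and Chmp1a were at -1.38 and -1.27. Of 50 spliceosome genes 28 were above and 22 below 0, with Snrnp70 at -0.99 and U2af1 at -0.79 against Snrpd3 at 1.01. The 42 cytosolic ribosomal proteins had 22 above and 20 below 0, with Rps6 at 0.87 and Rpl41 below 0 as deposited by 4 probe sets, from -0.62 to -0.27. Among p53 targets, 11 above and 10 below 0, Mdm2, the ubiquitin ligase of p53, was at 0.70 and 0.11 and Phlda3 at -0.89. Bak1, a pore-forming member of the BCL2 family, had 418 untreated, 779 with EGFP and 259 with DGK-zeta, a log2 ratio of -1.59, and its list had 9 above and 9 below 0. The 14-3-3 gene Ywhaq had 7 probe sets above 0, from 0.03 to 0.52, in contrast to the bright probe sets of Ywhae, and 4 of 6 measured 14-3-3 genes were above 0 by their brightest probe set.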
